A study of Bos taurus with 31 samples.

Results

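The genes described here encode glycosyltransferases of the Golgi, the enzymes that add sialic acid, fucose, galactose and the N-acetylated hexosamines to glycoproteins, glycolipids and mucins. They were chosen by name: every row of the count table called B3GNT, B3GALT, B4GALT, ST3GAL, ST6GAL, ST6GALNAC, ST8SIA, FUT, GALNT, GCNT or MGAT with a number was taken, except B4GALT1. Of 62 such rows, 59 counted loci remained among 13407 in the table after B4GALT1 was set aside and rows with identical counts were taken once. The RNA came from organoids, small clumps of mammary epithelium freed from biopsies by digestion, of 16 cows. Biopsies were taken from 15 cows as virgins, when 14 months old, and from 16 cows 40 to 60 days into lactation, 15 of them at both stages, with 1 library per biopsy. No treatment or genetic change was given for either group. Every lactating library was taken later in life, after calving, and the stage, the age, the parity and the sampling time cannot be told apart. Libraries are named by stage and animal, so that V502 and L502 came from 1 cow.

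Glycans are built in steps. N-glycans arrive in the Golgi as trimmed mannose cores, and the MGAT enzymes start their branches, which B4GALT enzymes extend with galactose and ST6GAL, ST3GAL and FUT enzymes cap. O-glycans of mucins begin when a GALNT enzyme places N-acetylgalactosamine on serine or threonine, and GCNT and B3GNT enzymes then branch and lengthen them. Gangliosides, the sialylated glycolipids, are made by other sialyltransferases of the same families. In the lactating gland these routes decorate milk mucins, kappa-casein, milk fat globule membrane proteins and free milk oligosaccharides, while B4GALT1, set aside here, is the catalytic part of lactose synthase.

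With each locus counted once, libraries held 12477568 to 38794104 counts in virgin and 17637505 to 45478555 counts in lactating samples. Levels are CPM, read counts scaled to a normalised library size, given as lowest, median and highest over the 15 virgin or 16 lactating libraries. Changes are log2 fold changes, lactating minus virgin, with their standard error (SE), and a gene was called where the edgeR quasi-likelihood adjusted p over all 13180 rows tested was under 0.05. Endothelial markers rose in 16 of 16 cases and leukocyte markers in 18 of 19. The summed leukocyte level was 42.5 to 160.4 CPM in virgin and 198 to 681 CPM in lactating libraries, and the endothelial sum 85.9 to 985 and 331 to 2159 CPM. Of 15 luminal epithelial markers 3 rose and 8 fell (sum 2792 to 12141 and 2072 to 5322 CPM), and of 10 myoepithelial markers 2 rose and 2 fell (sum 1169 to 5996 and 984 to 2323 CPM). No listed marker found in the table was at 0 in every library. V502 stood apart in fibroblast markers, with a sum of 21604 CPM against 342 to 2408 CPM in the other virgin libraries. It also stood apart in endothelial markers, with 985 CPM against 85.9 to 432 CPM in the other virgin libraries. The part of these cells in the changes below was not tested, and in bulk samples fewer cells of a type and less RNA per cell cannot be told apart.

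Of the 59 loci, 53 passed the filter on low counts and were tested. Of these 22 rose in lactation, or 41.5%, beside 24.2% of all rows tested, and 11 fell, or 20.8%, beside 30.9% of all rows. Both directions together made 62.3%, beside 55.1% of all rows, and the other 20 were not called. Their median log2 fold change was 0.14, beside -0.08 for all rows, and the fitted fold was under 2 for 40 of the 53. By a test for a change over 2-fold (glmTreat), GCNT4 and ST8SIA4 rose and B3GNT8, FUT2 and GALNT6 fell, which is 2 and 3 of 53 beside 5.39% and 2.80% of all rows (8.19% in either direction). With the animal as a block 24 loci rose and 12 fell, beside 27.9% and 27.8% of all rows. In that fit B4GALT3, GALNT5 and ST3GAL2 also rose over 2-fold, 5 in all beside 6.62% of all rows. Without V502, B4GALT3 and ST3GAL2 were added to GCNT4 and ST8SIA4, and GCNT4 alone rose over 2-fold without TMM factors or when the 5 animals with a letter in the virgin title were left out. Among the falls, FUT2 was not past 2-fold with limma-voom. B4GALT2 was added to them when any 1 of V478, V490, V502, V581, L581 and L615 was left out, and B4GALT2 and ST8SIA1 without TMM factors. The levels of both stages did not overlap for 2 loci, B3GNT8 and B4GALT2, both lower, beside 0.781% of all rows lower, 1.15% higher and 1.93% in either direction. For B3GNT8 and FUT2, however, only the virgin stage alone held enough libraries over the filter on low counts, so their place among the falls carries that limit. ST8SIA4 was higher in all 15 animals, 1 locus beside 7.41% of all rows, and B3GNT8, B4GALT2 and GALNT6 were lower in all 15, beside 5.52%. The calls of most rises depended on the TMM library factors. Without them libraries were scaled by plain totals. With each locus counted once, milk protein genes held up to 51.5% of counts (L479). Plain totals also hold repeated rows (56528764 counts in L479 beside 43017631), so the milk protein share of them was smaller. The median of all rows then moved by -0.48, and 5 loci were called higher and 26 lower, beside 10.5% and 58.8% of all rows. Of the 22 risen loci GCNT4, ST8SIA4, B4GALT3, GALNT5 and ST3GAL2 were still called higher then, and all 11 that fell were still called lower. B3GNT2, B4GALT5, GALNT11, MGAT2 and ST6GALNAC2, 5 of the 22, turned negative without a call, and the others stayed positive without one. With another scaling (RLE size factors), or with the milk protein genes removed, the calls of all 53 loci were the same. Both fits still used library factors, TMM ones in the latter, so they cannot decide how far the rises depend on such factors.

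**Figure D1:**
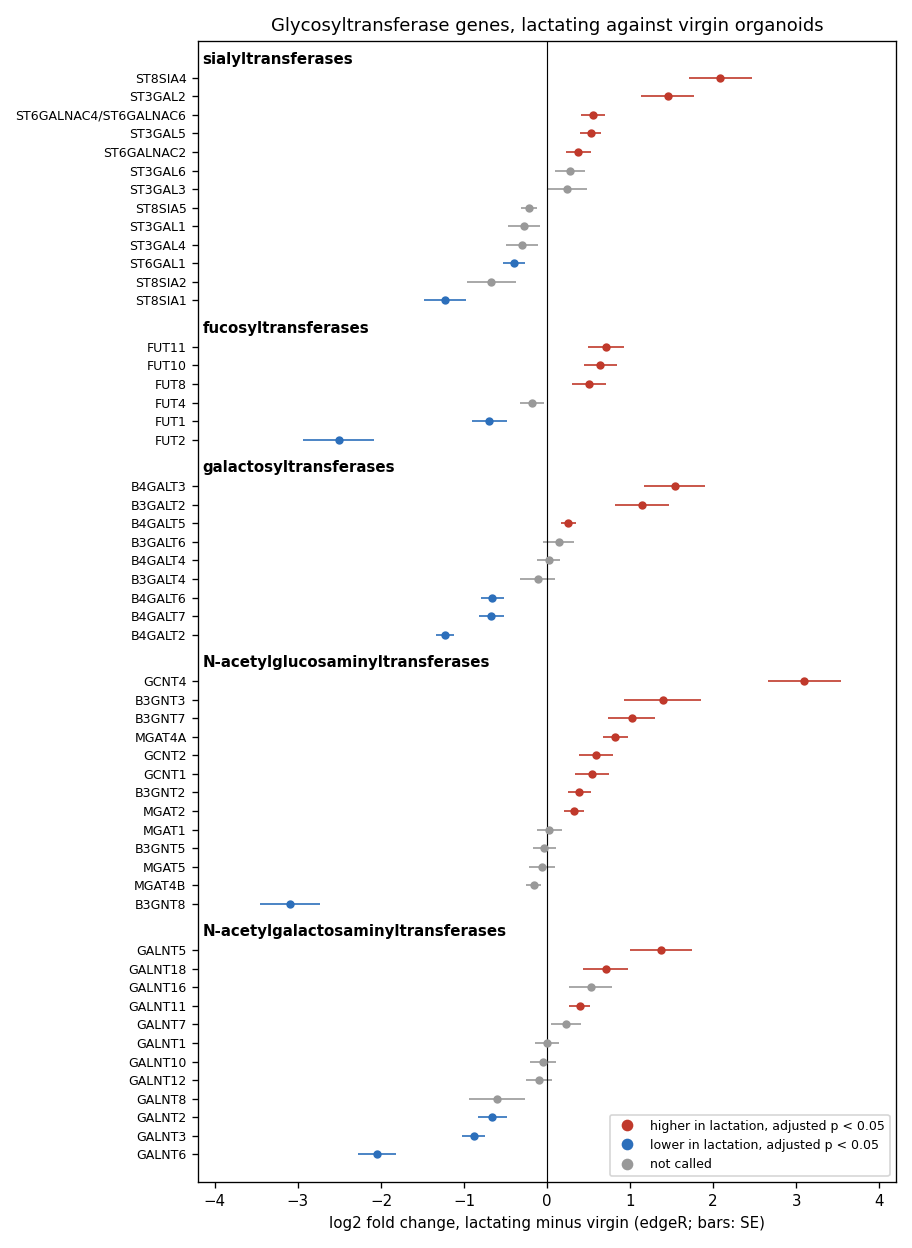
Fitted log2 fold change (lactating minus virgin, horizontal axis) of the 53 tested loci, grouped by the sugar they transfer, with bars for the SE. GCNT4 (3.1) and ST8SIA4 (2.08) lie farthest to the right and B3GNT8 (-3.09), FUT2 (-2.51) and GALNT6 (-2.05) farthest to the left.

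For 12 of the 59 loci a row may hold counts of a neighbouring gene as well. Of these, 6 had the same counts as a gene of another kind: B4GALT3 as ADAMTS4, B3GNT2 as COMMD1, B4GALT5 as UBE2V1 and TMEM189, ST3GAL4 as DCPS, GALNT6 as CELA1, and ST6GALNAC4 and ST6GALNAC6 as each other and PIP5KL1. All of these but GALNT6 and also B3GNT8, GCNT1, MGAT1, MGAT2, MGAT4B and ST8SIA5 spanned over 2 times the RefSeq length of the gene. Without the 12, 16 of 41 tested loci rose and 9 fell, 39% and 22% beside 24.2% and 30.9% of all rows. Of the changes over 2-fold, the falls of B3GNT8 and GALNT6 were in such rows. The rises of GCNT4 and ST8SIA4 and the fall of FUT2 remained, 4.88% and 2.44% of the 41 beside 5.39% and 2.80% of all rows.

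Among the sialyltransferases, which cap glycans with sialic acid, 5 of 13 tested loci rose and 2 fell. These are 38.5% and 15.4%, beside 24.2% and 30.9% of all rows. ST8SIA4 (ENSBTAG00000021445), a polysialyltransferase that builds chains of sialic acid, stood at 0.0864, 1.27 and 8.25 CPM in virgin and 3.33, 9.46 and 20.3 CPM in lactating libraries. It was the sialyltransferase with the largest rise, at 2.08 ± 0.38 (SE; edgeR adjusted p = 2.73e-05), with 15 of 15 animals higher. The highest virgin value was that of V502, and 13 of 15 virgin libraries lay below every lactating one. Without V502 the log2 fold change was 2.37.

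ST8SIA1 (ENSBTAG00000000593), the synthase of the disialoganglioside GD3, went the other way. Its levels were 7.98, 35 and 72.0 CPM in virgin and 5.80, 14.9 and 42.0 CPM in lactating libraries, and it fell by 1.23 ± 0.25 (SE; edgeR adjusted p = 1.22e-04). It was lower in 14 of 15 animals, though the ranges overlapped and L504 held 42.0 CPM. ST3GAL5, which makes the ganglioside GM3 from which GD3 is built, rose by 0.53 ± 0.13 (edgeR adjusted p = 6.49e-04), with 14 of 15 animals higher. ST3GAL2, which sialylates galactose of O-glycans and gangliosides, rose by 1.45 ± 0.32 (edgeR adjusted p = 2.46e-04). Its levels were 0.0576, 0.440 and 2.04 CPM in virgin and 0.354, 1.47 and 2.15 CPM in lactating libraries, and its log2 fold change was 1.76 without V502, the highest virgin library. The counted locus was 0.254 times the RefSeq length.

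The joined locus of ST6GALNAC4 and ST6GALNAC6, which sialylate O-glycans and gangliosides, rose by 0.56 ± 0.15 (edgeR adjusted p = 0.00163). ST6GALNAC2, an O-glycan sialyltransferase, rose by 0.38 ± 0.15 (edgeR adjusted p = 0.0370), a call lost when any 1 of 10 libraries was left out, and without L478 and L538 together (adjusted p = 0.0555). ST6GAL1, the main sialyltransferase of N-glycans, fell by 0.39 ± 0.13 (edgeR adjusted p = 0.0108), from a median of 39.9 to 31.9 CPM, in 12 of 15 animals. ST3GAL1, ST3GAL3, ST3GAL4, ST3GAL6, ST8SIA2 and ST8SIA5 were not called, with log2 fold changes between -0.67 and 0.27. ST8SIA2 (edgeR adjusted p = 0.0538) was called lower when any 1 of 9 libraries was left out. ST8SIA5 (edgeR adjusted p = 0.0551) was called lower with DESeq2 (adjusted p = 0.0476), with each locus counted once (0.046), and without V479, V502, V504, V507 or V581, with the smallest adjusted p, 0.0021, without V479.

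Of the fucosyltransferases, 3 of 6 tested rose and 2 fell, beside 24.2% and 30.9% of all rows. FUT2 (ENSBTAG00000021557), the secretor enzyme that makes the H antigen in epithelia, stood at 0.496, 3.1 and 15.2 CPM in virgin and 0.134, 0.787 and 2.09 CPM in lactating libraries. It fell by 2.51 ± 0.42 (SE; edgeR adjusted p = 9.26e-06) and was lower in 13 of 15 animals. In 11 of 15 virgin libraries it was above every lactating library, and V479 was the highest. The filter on low counts takes the libraries over a minimum in both stages together. FUT2 was over it in 15 virgin and 13 lactating libraries, ST3GAL2 in 13 and 16 and B3GNT3 in 9 and 14. For these 3 the higher stage alone held enough such libraries, and the lower stage alone did not. FUT1, which makes the same antigen in other cells, had low levels of 0.284, 0.689 and 1.36 CPM in virgin and 0.234, 0.468 and 0.722 CPM in lactating libraries, and fell by 0.69 ± 0.21 (edgeR adjusted p = 0.00495). FUT11 went from 1.41, 3.78 and 14.5 CPM to 4.61, 6.83 and 10.5 CPM, a rise of 0.71 ± 0.21 (edgeR adjusted p = 0.00535), in 14 of 15 animals. Its highest value of all was in V502, and 13 of 15 virgin libraries lay below every lactating one. FUT10 rose by 0.64 ± 0.19. FUT8, which adds the core fucose of N-glycans, rose by 0.51 ± 0.20 (edgeR adjusted p = 0.0340), a call lost when any 1 of 7 libraries was left out. FUT4, which makes Lewis-type antigens, was not called (-0.18 ± 0.15).

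Among the galactosyltransferases 3 of 9 tested loci were higher and 3 lower, 33.3% each, beside 24.2% and 30.9% of all rows. B4GALT2 (ENSBTAG00000011879), a close relative of B4GALT1, had the smallest p of all members. It stood at 9.21, 15.8 and 26.9 CPM in virgin and 5.62, 6.76 and 9.16 CPM in lactating libraries, so that every virgin library lay above every lactating one. The fall was 1.23 ± 0.11 (SE; edgeR adjusted p = 1.09e-10), in 15 of 15 animals. B4GALT1 itself rose by 0.91 ± 0.15 (edgeR adjusted p = 7.32e-06), from a median of 293 to 515 CPM.

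B4GALT6, a synthase of lactosylceramide, the parent of most gangliosides, fell by 0.66 ± 0.14 (edgeR adjusted p = 1.63e-04). Its levels were 13.9, 49.3 and 72.4 CPM in virgin and 20.5, 32.9 and 44.2 CPM in lactating libraries, with V479 the lowest of all. B4GALT7, which adds the first galactose of the proteoglycan linker, fell by 0.67 ± 0.15 (edgeR adjusted p = 3.43e-04), from 2.39, 5.26 and 12.6 CPM to 2.44, 3.50 and 4.49 CPM. Both were lower in 14 of 15 animals. B3GALT2, which adds galactose to N-acetylglucosamine, rose by 1.14 ± 0.33 (edgeR adjusted p = 0.00383), from a median of 1.01 to 2.33 CPM. The rows named B4GALT3 (1.54 ± 0.37) and B4GALT5 (0.26 ± 0.09) rose as joined loci. B3GALT4, B3GALT6 and B4GALT4 were not called, at -0.11 to 0.14.

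**Figure D2:**
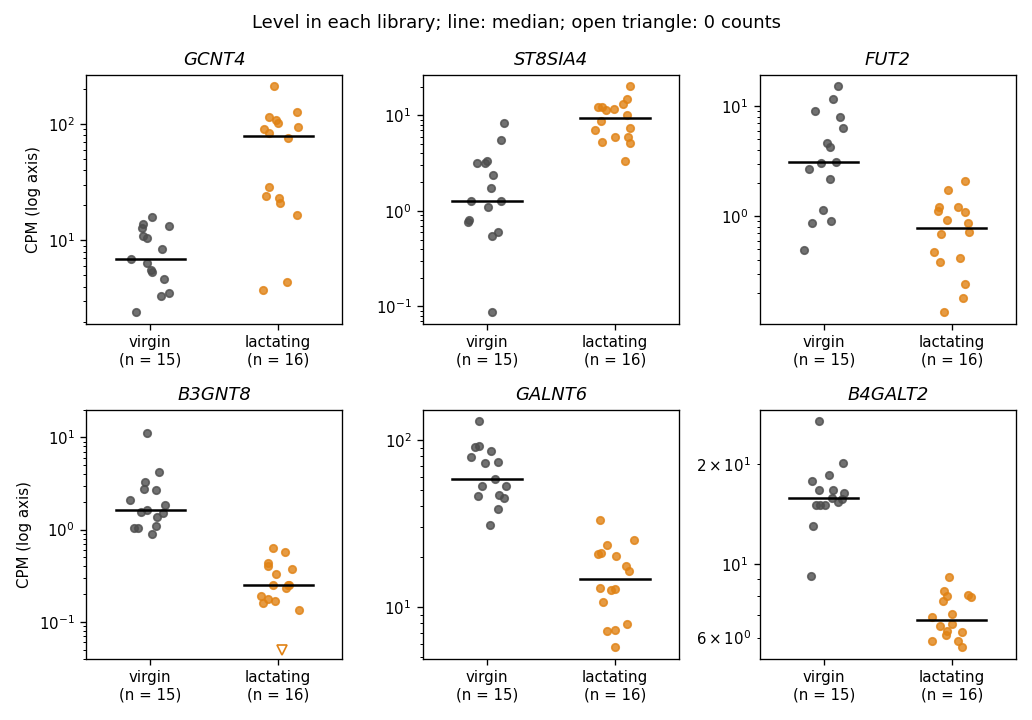
Level of 6 members in each library (CPM, log axes, 1 point per library, line at the median), for 15 virgin and 16 lactating libraries. The stages do not overlap for B3GNT8 and B4GALT2, while GCNT4 spans 3.77 to 212.5 CPM in lactation.

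The N-acetylglucosaminyltransferases, which branch and lengthen glycans, rose in 8 of 13 tested cases and fell in 1. These are 61.5% and 7.69%, beside 24.2% and 30.9% of all rows. GCNT4 (ENSBTAG00000002781), a branching enzyme of mucin-type O-glycans, had the largest rise of all members. It stood at 2.41, 6.98 and 15.8 CPM in virgin and 3.77, 79.4 and 212.5 CPM in lactating libraries. The log2 fold change was 3.1 ± 0.44 (SE; edgeR adjusted p = 7.11e-07), and GCNT4 was higher in 14 of 15 animals. Of the 16 lactating libraries 14 lay above every virgin one, and only L478 (3.77 CPM) and L538 (4.38 CPM) lay among the virgin values.

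L478 and L538 were also the lactating libraries with the smallest milk protein share, the percentage of counts from 7 milk protein genes, at 0.577% and 0.243%. In L490, L504, L531, L581 and L615, where that share was 5.13% to 11.4%, GCNT4 was at 16.6 to 29.0 CPM. In the remaining 9 lactating libraries the share was 26.1% to 51.5% and GCNT4 was at 75.5 to 212.5 CPM. Virgin libraries held 0.0281% to 0.682% of counts in milk protein genes. The lactating libraries thus lay in separate ranges, so no correlation is given. The log2 fold change of GCNT4 was 3.28 without L478 and L538, and 2.5 with the animal as a block. The endothelial sum split the lactating libraries in the same way, with 331 and 351 CPM in L538 and L478. It was 534 to 839 CPM in L490, L504, L531, L581 and L615, and 1152 to 2159 CPM in the remaining 9. TMM factors were 0.596 to 0.854 in those 9 and 0.950 to 1.21 in the other lactating libraries. How far GCNT4 levels follow the milk share, the endothelial cells or the scaling was not tested.

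**Figure D3:**
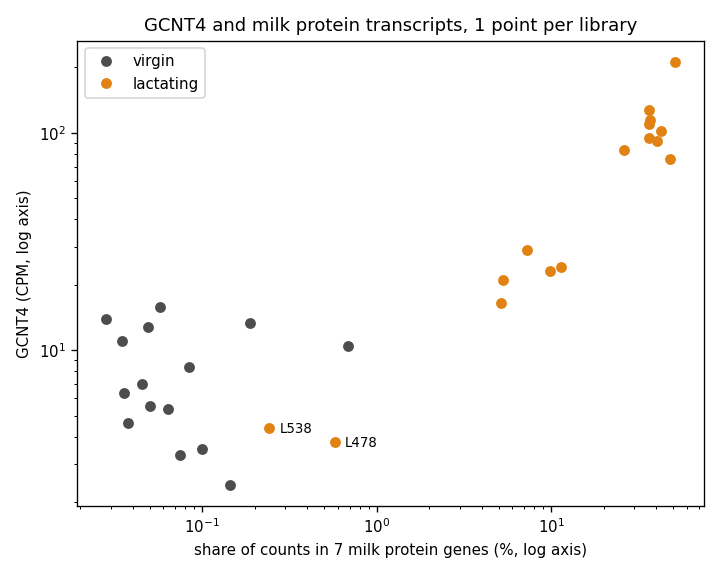
GCNT4 level (CPM, vertical log axis) against the percentage of counts from 7 milk protein genes (horizontal log axis), 1 point per library. L478 and L538 lie among the virgin libraries, and the other 14 lactating libraries lie above 16 CPM.

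B3GNT8 (ENSBTAG00000016041), which extends N-glycan branches with lactosamine repeats, fell the farthest of all members. It stood at 0.8996, 1.62 and 11.3 CPM in virgin and 0, 0.252 and 0.632 CPM in lactating libraries, with no overlap, and L595 held no count. The log2 fold change was -3.09 ± 0.36 (SE; edgeR adjusted p = 1.88e-08), lower in 15 of 15 animals, and -2.705 without V479, the highest library. B3GNT8 passed the filter through its virgin libraries, since 5 of 16 lactating ones reached the minimum. Its locus was 2.37 times the RefSeq length.

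MGAT4A, which starts an extra N-glycan branch, rose by 0.82 ± 0.15 (edgeR adjusted p = 2.23e-05). Its levels were 4.10, 6.83 and 11.4 CPM in virgin and 8.0, 12.1 and 20.6 CPM in lactating libraries, and 11 of 16 lactating libraries lay above every virgin one. Of the other branching enzymes of N-glycans, MGAT2 rose by 0.32 ± 0.12 (edgeR adjusted p = 0.0248, lost without V581, adjusted p = 0.0587). MGAT1, MGAT4B and MGAT5 were not called, at 0.03, -0.16 and -0.06. GCNT1, a main branching enzyme of O-glycans, rose by 0.54 ± 0.21 (edgeR adjusted p = 0.0285), a call lost without L531 or V610 (adjusted p = 0.0527 and 0.0563), and GCNT2, which branches lactosamine chains, by 0.59 ± 0.20. B3GNT3, which extends O-glycans, rose by 1.39 ± 0.46, B3GNT7, known from keratan sulfate, by 1.02 ± 0.28 and B3GNT2, the main lactosamine-extending enzyme, by 0.39 ± 0.14. B3GNT3 and B3GNT7 were scarce, with lactating medians of 0.864 and 0.569 CPM. The rows of MGAT2, GCNT1 and B3GNT2 are among those that may hold counts of a neighbouring gene. The counted locus of B3GNT7 was 0.263 times the RefSeq length. B3GNT5 was not called (-0.03).

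The N-acetylgalactosaminyltransferases start O-glycans, and 3 of 12 tested loci rose and 3 fell, 25% each, near the 24.2% and 30.9% of all rows. GALNT6 (ENSBTAG00000017943), counted in 1 locus with CELA1, stood at 31.1, 58.4 and 130 CPM in virgin and 5.75, 14.8 and 33.4 CPM in lactating libraries. It fell by 2.05 ± 0.23 (SE; edgeR adjusted p = 9.00e-09) in 15 of 15 animals, and L615 alone reached above the lowest virgin library, V509. GALNT3 fell by 0.88 ± 0.14 (edgeR adjusted p = 3.00e-06), from 13.7, 29.4 and 42.2 CPM to 11.6, 15.3 and 28.0 CPM. GALNT2 fell by 0.66 ± 0.17 (edgeR adjusted p = 0.00185), from 33.0, 48.8 and 67.2 CPM to 19.4, 26.6 and 85.8 CPM. For GALNT2, 13 of 16 lactating libraries lay below every virgin one, while L538 (85.8 CPM) and L478 (62.3 CPM) were the highest lactating ones. Without both the log2 fold change was -0.97.

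In the same family GALNT5 rose by 1.37 ± 0.37 (edgeR adjusted p = 0.00240), from a median of 0.566 to 2.53 CPM. GALNT18 rose by 0.70 ± 0.27 and GALNT11 by 0.39 ± 0.13. GALNT1, the most counted of them at medians of 108.3 and 111.2 CPM, was at -0.01 ± 0.14 on the log2 scale (edgeR adjusted p = 0.976). GALNT10 and GALNT12 were not called either. GALNT7 (0.23), GALNT8 (-0.61) and GALNT16 (0.52) were not called, but were with the animal as a replicate block (adjusted p = 0.0446, 0.0437 and 0.017). GALNT16 was called without V502 (0.77, adjusted p = 0.00394), its highest library. Without all 5 animals whose virgin library has a letter in its title, the calls of GALNT11, GALNT18, B3GNT2, B3GNT3, GCNT2, FUT8, FUT11 and ST6GALNAC2 were lost. Their log2 fold changes were then 0.33, 0.61, 0.27, 1.04, 0.47, 0.53, 0.53 and 0.26 in that order, so that FUT8 was no lower than with all libraries.

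The 6 remaining loci were too scarce to test, namely FUT6, GALNT13, GALNT15, MGAT5B, B3GALT5 and ST6GALNAC5, each with at most 108 counts in a library. FUT6, of the Lewis-type fucosyltransferases, held 15 counts over all virgin and 360 over all lactating libraries. It was at 0 in 6 virgin and 3 lactating libraries, and 13 lactating libraries lay above every virgin one. GALNT13 held 328 counts over virgin and 35 over lactating libraries and was at 0 in 1 virgin and 7 lactating ones. Fitted without the filter, FUT6 stood at 4.33 ± 0.62 (edgeR adjusted p = 7.77e-07) and GALNT13 at -3.02 ± 0.53 (adjusted p = 1.57e-05). Of the 59 loci, 4 were higher and 7 lower in the authors' deposited table at an adjusted p under 0.05, beside 10.8% and 10.3% of all rows. FUT6 and GALNT13 were among them, and the other 9 were called in the same direction here. Of the 33 loci called here only those 9 were under 0.05 there, with GCNT4, ST8SIA4 and MGAT4A as the only rises. How the authors adjusted their p-values is not given in the sources used here, so the 2 thresholds may be unlike. GALNT2 and GALNT5, not under 0.05 there, had log2 fold changes of -0.64 and 1.40 in that table, beside -0.66 and 1.37 here.

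**Figure D4:**
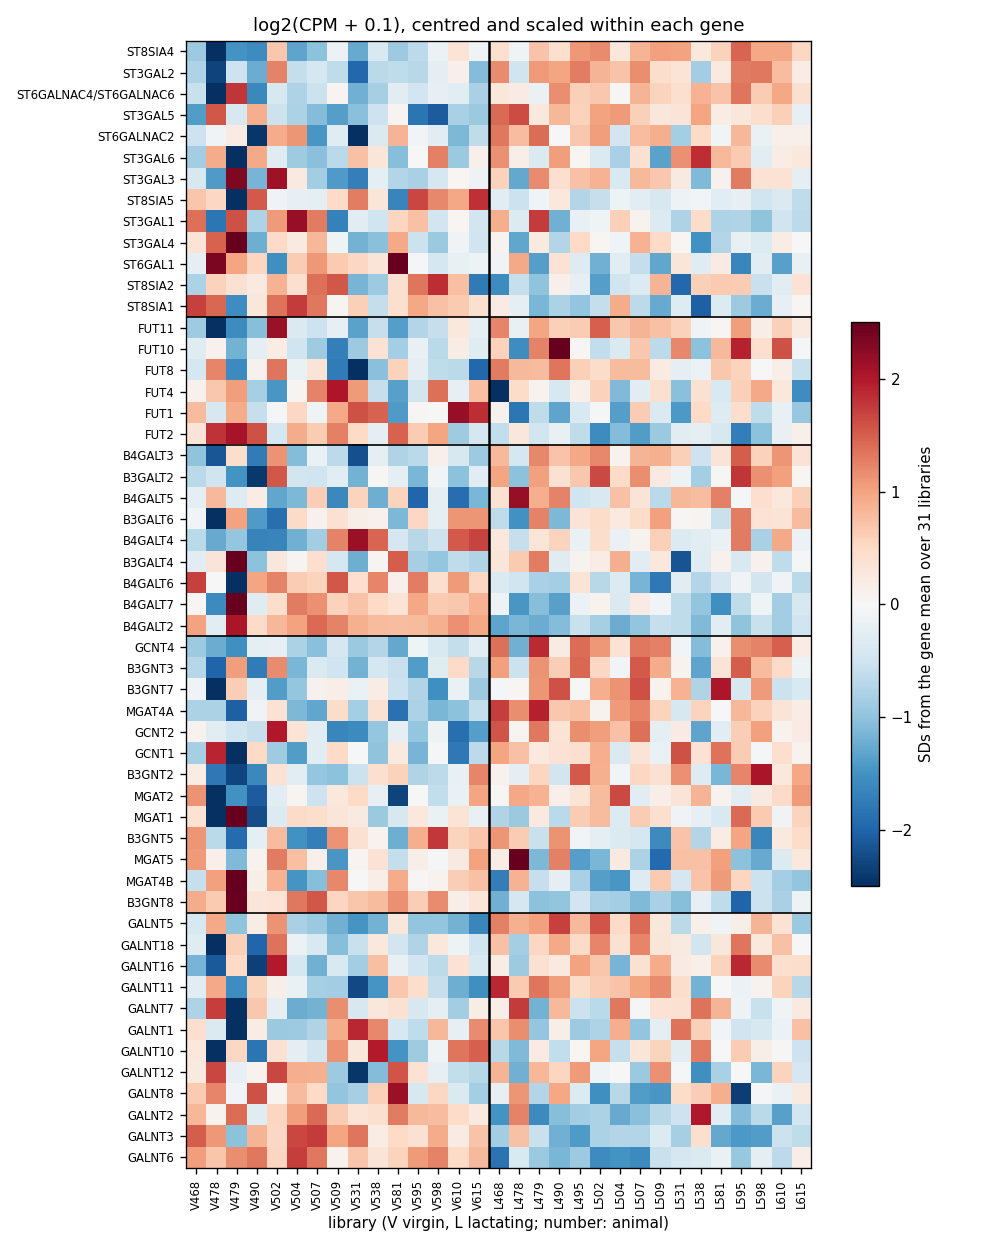
Level of the 53 tested loci (rows, log2 of CPM plus 0.1, centred and scaled for each gene) in each library (columns, virgin left of the line). GALNT6, GALNT3 and B4GALT2 are mostly red in virgin libraries and GCNT4 and ST8SIA4 in lactating ones, and V478, V479 and V502 hold many of the darkest cells.

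L478 and L538 lay together at the ends of the 16 lactating libraries for 15 of the 53 loci. They were the lowest for 12, beside 8.76% of all rows: GCNT4, B4GALT3, B3GALT2, B3GNT3, FUT10, FUT11, GALNT12, GALNT18, ST3GAL2, ST3GAL3, ST3GAL4 and ST8SIA4. They were the highest for 3, beside 8.66% of all rows, namely GALNT2, GALNT3 and GALNT7. For B3GALT2 they held 0.657 and 0.762 CPM, where the other 14 held 1.35 to 5.75 CPM, and for GALNT3 28.0 and 24.6 CPM against 11.6 to 18.1 CPM. Their leukocyte sums, 202.5 and 198 CPM, were also the lowest of the 16, and their luminal epithelial sums, 5322 and 4806 CPM, the highest. The part of those cells was not tested. Without both, 22 loci rose and 11 fell.

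Libraries of a stage differed among themselves. The SD of log2 CPM was larger in virgin than in lactating libraries for 47 of 53 loci, beside 87.2% of all rows. GCNT4 was one of the exceptions, with an SD of 0.84 in virgin and 1.73 in lactating libraries. V502 was the highest virgin library for 13 of the 53 loci, beside 10.9% of all rows. V479 was the highest for 11 and the lowest for 12, beside 27.1% and 28.8% of all rows. V478 was the lowest virgin library for 14, beside 11.2% of all rows. The median difference of the 53 loci within an animal was above 0 in 13 of 15 animals, and below it in the cows of V502 (-0.17) and V538 (-0.18). The median over all rows was above 0 in 7 of 15. These levels are TMM-scaled, and the fitted median of the 53 loci was -0.40 without TMM factors, beside -0.56 for all rows.

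The deposited RPKM values divide by the whole span of a locus, introns included, so that compact genes rank high on that scale. Per kilobase of locus, ST6GAL1 led the sialyltransferases in virgin libraries (0.874 RPKM) and the ST6GALNAC4 and ST6GALNAC6 locus in lactating ones (0.995). FUT4 led the fucosyltransferases in both (0.987 and 0.876), B4GALT3 the galactosyltransferases (9.45 and 27.4) and MGAT2 the N-acetylglucosaminyltransferases (3.06 and 3.85), both of these as joined loci. GALNT3 led its family in virgin (1.11) and GALNT1 in lactating libraries (0.864). GCNT4 went from 0.265 to 2.30 RPKM and so to the place behind MGAT2.

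Other genes of the glycan pathways also went both ways, beside 24.2% of all rows higher and 30.9% lower. Of 37 tested genes that make and carry nucleotide sugars, 9 rose and 10 fell, near those shares. Their median was -0.01 beside -0.08 for all rows. UGP2, which makes UDP-glucose, rose by 1.56 ± 0.25, the nucleotide sugar transporter SLC35D2 by 1.60 ± 0.23 (joined with HSD17B3) and GALK2, a sugar kinase, by 1.16 ± 0.23. UXS1, which makes UDP-xylose, fell by 0.52 ± 0.10, and PGM3, of the hexosamine route, by 0.52 ± 0.11. Of 34 genes of N-glycan transfer and trimming, 12 rose and 12 fell, with the Golgi mannosidase MAN1C1 at 1.34 ± 0.23, the glucosyltransferase ALG8 at 0.93 ± 0.18, the glucosidase MOGS at -0.90 ± 0.15 and TUSC3, of the oligosaccharyltransferase, at -0.61 ± 0.11. These counts depended on the scaling. Without TMM factors 5 rose and 24 fell in the nucleotide sugar list, and 2 rose and 20 fell in the N-glycan list. Of all rows 10.5% rose and 58.8% fell in that fit.

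Of 30 other glycosyltransferases outside the chosen names, 11 rose and 9 fell, beside 24.2% and 30.9% of all rows, with a median of -0.13. Without TMM factors 4 rose and 16 fell, beside 10.5% and 58.8% of all rows. MFNG (2.36 ± 0.34) and LFNG (1.24 ± 0.17), which elongate fucose on NOTCH receptors, rose in 15 of 15 animals, as did the blood group transferase gene ABO (1.55 ± 0.23). EXT2, which polymerises heparan sulfate, fell by 0.64 ± 0.08, POMGNT2, of O-mannose glycans, by 0.97 ± 0.13 and UGT8, which makes galactosylceramide, by 1.59 ± 0.24. Of 19 glycosidases and sialidases, 4 rose and 6 fell, beside the same shares of all rows as in the main fit above. With the animal as a block 7 rose, beside 27.9% of all rows, and 7 rose without V581. The galactosylceramidase GALC fell by 1.32 ± 0.17, the mannosidase MANBA by 1.09 ± 0.16 and the sialidase NEU1 by 1.14 ± 0.21, while GM2A, a ganglioside-binding activator, rose by 0.51 ± 0.16.

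Of 35 genes listed as mucins and secreted glycoproteins, 18 were tested. Of these 16 rose and none fell, beside 24.2% and 30.9% of all rows, with a median of 4.48. SPP1 (0.39) and CLU (-0.18) were not called. The list also holds LALBA, the enzyme gene XDH and membrane proteins such as CD36 and EMCN. Which of the listed proteins carry glycans of these kinds was not tested. MUC1, the membrane mucin of milk fat globules, rose by 6.73 ± 0.57 (edgeR adjusted p = 6.56e-11), CSN3, the glycosylated kappa-casein, by 6.19 ± 0.52 and CD36, of the milk fat globule membrane, by 3.38 ± 0.33, each in 15 of 15 animals. The list was written with earlier results of these data known and shares genes with the endothelial and milk protein lists, so it is no independent evidence of direction.

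**Figure D5:**
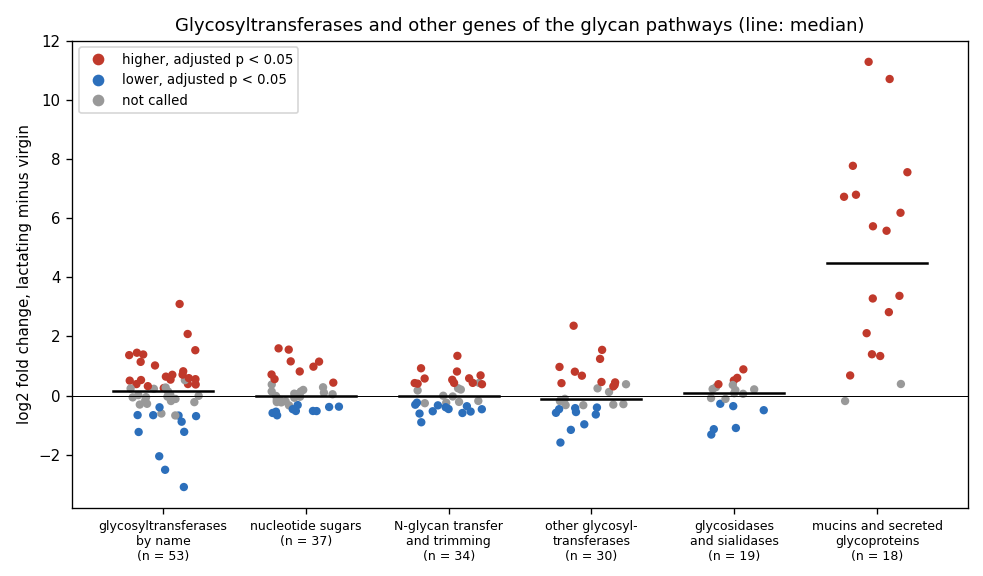
Log2 fold change (lactating minus virgin, vertical axis) of each tested gene in the chosen glycosyltransferases and 5 lists of other glycan pathway genes, with a line at each median. Medians lie near 0, from -0.13 to 0.14, except for the mucins and secreted glycoproteins at 4.48.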

How the data were processed

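The authors deposited raw read counts per gene. Another table held RPKM values, log2 fold changes (virgin minus lactating, as judged from its RPKM values) and adjusted p-values, all deposited by the authors. The tools named, per the submitters' processing notes, are featureCounts 1.5.2, Subread, HISAT2 2.0, StringTie 1.3.2, SAMtools and edgeR, with build UMD3.1. Roles and settings: not given in the sources used here. The ratio of count to RPKM gave each locus length. No coordinates are printed, because the RefSeq table (ARS-UCD2.0) is of another build, and it held a length for all 59 loci.

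Counts were fitted with edgeR 4.0.16 in R 4.3.3: filterByExpr (minimum count 10, minimum total 15), TMM factors, estimateDisp, robust glmQLFit and glmQLFTest with stage as the only term, Benjamini-Hochberg adjustment over 13180 rows, and glmTreat with a log2 bound of 1. The SE is the size of the log2 fold change divided by the square root of F. The steps were tested on simulated data, in which all rows but a random few had the same mean share of counts in both stages. That test cannot check the scaling on which the calls of most rises depend. Limma 3.58.1 and DESeq2 1.42.0 served as alternatives, beside other scalings, filters and sets of libraries.

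The animal number pairs the samples, since both libraries came from 1 cow. After removal of stage means, libraries of an animal correlated at 0.070 to 0.392 (over 0.1 in 12 of 15 pairs).

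Values by stage are given for called members past 2-fold and the 3 of each role with the smallest p. Log2 fold changes are given from each list for the 3 called genes with the smallest p and the 2 against the main direction, taken as that of most calls or, when tied, of the median. GALK2, PGM3, MFNG, ABO, UGT8, NEU1, SPP1 and CLU fall outside this rule and were named after their values were seen. The result of 1 listed gene is not reported here. The members and lists were chosen with earlier results of these data known.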

Additional observations from a re-analysis of the deposited data

How the results depend on the processing

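The counts of 22 higher and 11 lower loci ranged over 19 to 23 and 11 to 12 when 1 library was left out. All 33 calls kept their direction with the animal as a replicate block (24 higher, 12 lower), a fit without L495. Over 2-fold rises numbered 5 with the replicate block, 2 to 4 without 1 library (4 without V502) and 1 without the 5 animals with lettered titles. Without TMM factors 5 loci were higher and 26 lower, 1 and 5 of them over 2-fold, with a median of -0.40, and 7 turned: GALNT11 (-0.101), B3GNT2 (-0.15), MGAT1 (-0.46), MGAT2 (-0.18), B4GALT4 (-0.52), B4GALT5 (-0.19) and ST6GALNAC2 (-0.14). In that fit the higher and lower counts were 5 and 24 for nucleotide sugars, 2 and 20 for N-glycan transfer, 4 and 16 for other glycosyltransferases, and 1 gene was higher among glycosidases. Of all rows 10.5% were higher and 58.8% lower then, with a median of -0.56. Without the lettered animals 5, 5, 7 and 1 genes of these 4 lists rose. Glycosidases that rose numbered 7 with the replicate block and 3 to 7 without 1 library (7 without V581). The block changed no call of a member other than those of GALNT7, GALNT8 and GALNT16. Low counts limit the members under 1 CPM.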

Other observations

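ST8SIA5 had the narrowest spread of all tested members in lactation, with an SD of log2 CPM of 0.07 in 16 lactating libraries against 0.38 in virgin ones. Its levels were 25.8 to 70.8 CPM in virgin and 43.0 to 52.2 CPM in lactating libraries. The locus spans 2.70 times the RefSeq length of ST8SIA5, so the counts may include a neighbour's; neither RefSeq neighbour, LOXHD1 or PIAS2, has a row of its own.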
